A study of Mus musculus with 12 samples.

Results

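The nesprins and SUN proteins build the bridge that joins the cell's nucleus to its cytoskeleton, and 6 genes that encode them were followed here in bile duct organoids. The genes are Syne1, Syne2, Syne3, Syne4, Sun1 and Sun2, taken by symbol from the 53700 gene identifiers of a raw count table. RNA came from intrahepatic cholangiocyte organoids, which are hollow, gel-embedded cultures of the cells that line the bile ducts, at passage 5 and without treatment. Each of 6 mice gave one culture from the hilum of the liver, where the large ducts leave, and one from its periphery. The groups were Ndr hilar, WT hilar, Ndr peripheral and WT peripheral, with 3 libraries each.

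Ndr mice (1224, 1220 and 1219) were homozygous for the Ndr allele of Jag1 (Jag1 Ndr/Ndr), a missense change in a Notch ligand that serves as a mouse model of Alagille syndrome. WT mice (1221, 1225 and 1223) carried Jag1 +/+. The cultures were derived in June 2021, on day 21 (mouse 1224), day 18 (mouse 1220) and day 17 (mouse 1219) for Ndr, and on day 15 (mice 1221 and 1223) and day 21 (mouse 1225) for WT, so derivation day and genotype overlap only on day 21. The labels used here give no age or sex of the mice, and each library is 1 culture of 1 animal.

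Nesprins sit in the outer nuclear membrane and hold on to SUN proteins of the inner membrane through a short KASH tail at their carboxyl end. SUN proteins reach inward to the lamins, and nesprins reach outward to actin, intermediate filaments or motor proteins. The chain is known as the LINC complex, and in epithelia it is known for placing the nucleus within a polarised cell and for passing force to it.

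The ends of the coding sequences are shown because the KASH tail is what makes a nesprin part of the bridge. They are the last 20 codons and the stop codon of the principal transcript, from GENCODE M21 transcripts on GRCm38. Capitals mark the run of proline codons (CCN) just before the last amino acid codon, and the coordinates include the stop codon.
Syne1, chr10:5022007-5022069, minus strand: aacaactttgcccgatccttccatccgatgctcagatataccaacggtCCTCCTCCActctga
Syne2, chr12:76109982-76110044, plus strand: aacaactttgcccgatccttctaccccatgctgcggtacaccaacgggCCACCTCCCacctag
Syne3, chr12:104932165-104932227, minus strand: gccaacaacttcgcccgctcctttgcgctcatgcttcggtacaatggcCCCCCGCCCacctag
Syne4, chr7:30318939-30319001, plus strand: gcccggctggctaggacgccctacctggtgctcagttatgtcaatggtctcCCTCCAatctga
Sun1, chr5:139248469-139248531, plus strand: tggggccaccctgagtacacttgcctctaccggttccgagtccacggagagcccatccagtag
Sun2, chr15:79725447-79725509, minus strand: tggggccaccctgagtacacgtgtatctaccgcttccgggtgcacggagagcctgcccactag
All 4 nesprin ends carried such a run, of 3 codons in Syne1, Syne2 and Syne3 and 2 in Syne4, and neither SUN end did. Over the 60 bases before the stop, read position by position, Syne1 and Syne2 shared 80.0% and Sun1 and Sun2 shared 83.3%. Syne1 and Syne4 shared 58.3%, Syne2 and Syne3 48.3% and Syne1 and Syne3 41.7%. No gaps were allowed, and the start shared by the Syne1 and Syne2 ends comes a codon later in Syne3. The percentages therefore do not rank the ends by relatedness. The genes differ widely in size: the principal coding sequence holds 8799 codons in Syne1, 6874 in Syne2, 975 in Syne3, 388 in Syne4, 913 in Sun1 and 699 in Sun2.

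Libraries held 6708822 to 16030880 counts. Values are CPM, counts scaled to a common depth on library sizes scaled by TMM (a correction for differences in composition), and differences are log2 differences from edgeR's quasi-likelihood fit over all 12 libraries, with their standard error (SE). Summed cholangiocyte markers, led by Spp1, stood at 11176 to 21038 CPM, against at most 164 CPM for hepatocyte, 40.3 CPM for immune markers (led by Csf1r), 28.9 CPM for fibroblast and stellate, 3.27 CPM for muscle and neural and 0.530 CPM for endothelial markers, and Dcn, Lum and Thy1 had no count in any library. Jag1, whose transcript the missense allele leaves in place, averaged 141 ± 53.3 CPM in Ndr hilar and 120 ± 59.3 CPM in WT hilar cultures, and 103 ± 44.8 CPM in Ndr peripheral and 128 ± 44.9 CPM in WT peripheral cultures (SD, n = 3 each). No gene passed an adjusted p of 0.05 in edgeR in any comparison (0%), the 6 genes included. The fit over 12 libraries tested 15014 genes, and the fit on the summed pair of libraries of each mouse tested 15401.

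Per kilobase of exon the SUN genes were the most abundant. Averaged over the 12 libraries, Sun1 stood at 13.3 and Sun2 at 7.06 CPM per kilobase, ahead of Syne2 (2.49), Syne4 (1.97), Syne1 (0.608) and Syne3 (0.136). Syne2 and Syne4 changed places when the length of the principal transcript was used instead (3.07 and 4.3 CPM per kilobase). Gene counts do not show which transcripts were present, so the order holds for these 2 lengths only. The shortest protein-coding transcript measures 2.73 kilobases for Syne1 and 0.44 for Syne2, against 0.39 for Sun1 and 0.35 for Sun2. The SUN genes were also the steadiest: the SD of log2 CPM over the 12 libraries was 0.220 for Sun1 and 0.247 for Sun2, and 10.3% and 14.5% of tested genes varied less. The nesprins varied far more, with SDs of 1.5 for Syne1, 1.42 for Syne4, 1.10 for Syne3 and 0.955 for Syne2. Of tested genes 96.4%, 95.6%, 90.9% and 87.7% varied less. These SDs hold the differences between groups, the hilar Syne1 difference among them. Within groups the order of the nesprins changed, with SDs of 0.650 for Syne1, 0.814 for Syne4, 1.08 for Syne3 and 1.10 for Syne2. The within-group SD was 0.221 for Sun1 and 0.265 for Sun2. Measured as the highest library over the lowest, Syne4 spanned 33.2-fold, Syne1 23.8-fold and Syne2 9.93-fold, against 1.59-fold for Sun1 and 1.94-fold for Sun2. The lowest library held 4 counts of Syne4 and 17 of Syne1, and Syne3 ran from 0 to 27 counts. The SUN genes had at least 261 counts in every library. The part of counting error in these spreads was not tested, and the percentages of genes varying less were not matched for level.

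**Figure D1:**
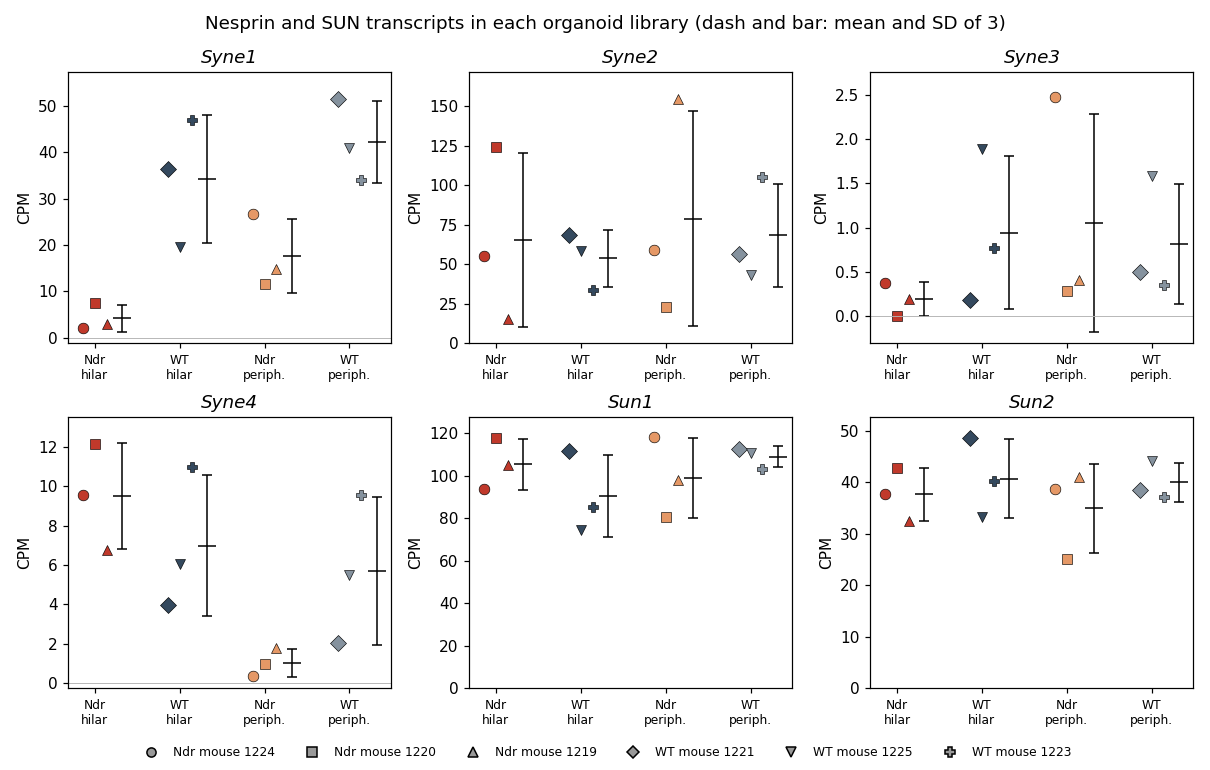
CPM of each gene (vertical axes, a separate scale per gene) in the 12 libraries by group; the symbol marks the mouse, and the dash and bar give the mean and SD of 3. Syne1 is lowest in the 3 Ndr hilar libraries (2.17 to 7.58 CPM), Syne4 in the 3 Ndr peripheral libraries (0.366 to 1.76 CPM), and Sun1 and Sun2 stay within 1.59-fold and 1.94-fold.

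Syne1 (ENSMUSG00000096054) encodes nesprin-1, a giant spectrin-repeat protein whose long form binds actin. Which value brought the family to attention is not recorded, and it was taken to be the Syne1 difference in hilar cultures. Syne1 values that rest on the hilar libraries are therefore given as a description, without a test. The genes were chosen with earlier results known, so the other p-values may not be free of that choice either. Ndr hilar libraries held 2.17, 7.58 and 2.90 CPM of Syne1 (mice 1224, 1220 and 1219; 17, 58 and 30 counts), against 36.5, 19.6 and 47.0 CPM in WT hilar libraries (mice 1221, 1225 and 1223; 598, 156 and 304 counts). Every Ndr hilar library lay below every WT hilar library. The means were 4.22 ± 2.93 CPM in Ndr hilar and 34.3 ± 13.8 CPM in WT hilar cultures (SD, n = 3 each), and the log2 difference was -3.03 (SE 0.518), 8.17-fold lower in Ndr. Without the hilar library of Ndr mouse 1220, the highest of the 3, it was -3.76, and by limma-trend on the authors' normalized table it was -2.41. In this direction 4.18% of the tested genes separated the hilar groups without overlap.

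The cultures derived on the same day, from Ndr mouse 1224 and WT mouse 1225, held 2.17 CPM and 19.6 CPM of Syne1 in the hilum, a log2 difference of -3.06. In bulk RNA, fewer cells that make a transcript and less of it per cell cannot be told apart. Summed proliferation genes, led by Top2a, lay at 346 to 596 CPM in Ndr hilar and 408 to 2217 CPM in WT hilar cultures, and their part in the Syne1 difference was not tested. Reln led the fibroblast and stellate markers, whose sum lay at 3.0 to 28.9 CPM in Ndr hilar and 1.85 to 4.27 CPM in WT hilar cultures. Their part in the Syne1 difference was not tested either.

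In peripheral cultures the genotype difference of Syne1 did not pass the test. Ndr peripheral libraries held 26.7, 11.5 and 14.9 CPM (mice 1224, 1220 and 1219), against 51.6, 40.9 and 34.1 CPM in WT peripheral libraries (mice 1221, 1225 and 1223). These groups did not overlap either, as was the case in this direction for 3.61% of tested genes. The means were 17.7 ± 7.99 CPM in Ndr peripheral and 42.2 ± 8.82 CPM in WT peripheral cultures (SD, n = 3 each), a log2 difference of -1.25 (SE 0.475, edgeR adjusted p = 1.0, unadjusted p = 0.0228). By limma-trend on the authors' normalized table it was -0.49 (SE 0.491). On the same derivation day the peripheral values were 26.7 CPM in the Ndr and 40.9 CPM in the WT culture (log2 difference -0.61).

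Summing the pair of libraries of each mouse gave 16.6, 9.64 and 8.53 CPM of Syne1 in Ndr mice (1224, 1220 and 1219) and 43.3, 31.6 and 39.7 CPM in WT mice (1221, 1225 and 1223). All 3 Ndr mice lay below all 3 WT mice, with a log2 difference of -1.72 (SE 0.282). With derivation date as a factor, which leaves the comparison to the Ndr and WT mouse of day 21, it was -0.93 (SE 0.282). This sum holds the hilar libraries and is a description. In it 5.78% of 15401 tested genes separated the genotypes in this direction.

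Within Ndr mice, Syne1 was lower in the hilar culture in all 3 animals, and all Ndr hilar libraries lay below all Ndr peripheral ones, as did 7.93% of tested genes. The peripheral culture held 12.3 times the hilar CPM in mouse 1224, 1.52 times in mouse 1220 and 5.13 times in mouse 1219, and in 12.8% of tested genes the hilar culture was lower in 3 of 3 Ndr mice. In WT mice the same ratio was 1.41 in mouse 1221, 2.09 in mouse 1225 and 0.726 in mouse 1223, so the order was not shared. The log2 difference of hilar from peripheral cultures was -2.08 (SE 0.505) in Ndr and -0.30 (SE 0.467) in WT, and -2.78 in Ndr without the hilar library of mouse 1220. The interaction of genotype and region was -1.78 (SE 0.681), or -2.49 without that library. These values share the hilar libraries that are taken to have brought Syne1 to attention.

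**Figure D2:**
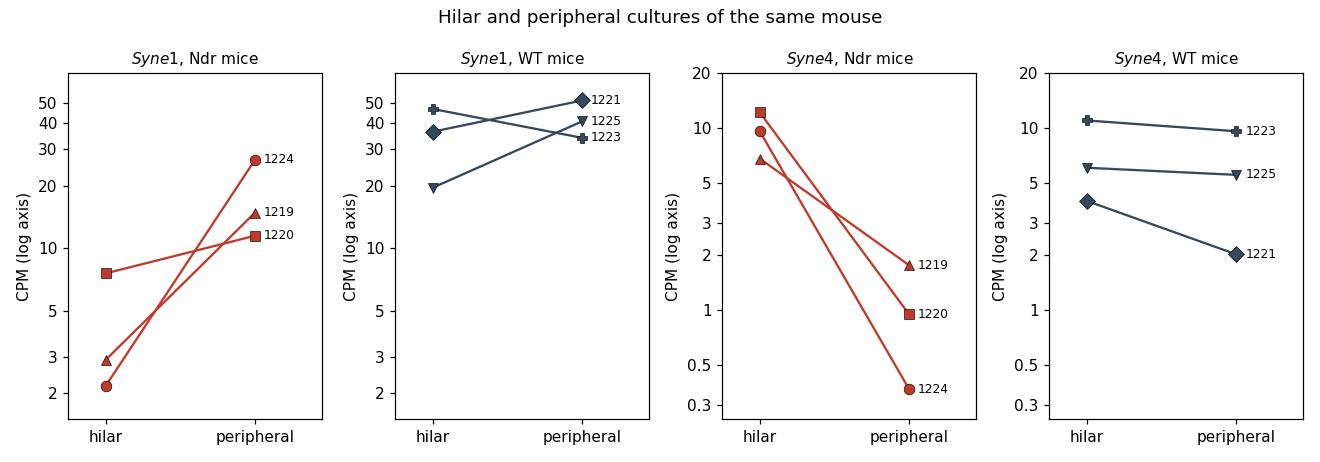
CPM of Syne1 and Syne4 (log axes) in the hilar and peripheral culture of the same mouse, joined by a line, for 3 Ndr and 3 WT mice. In Ndr mice all Syne1 lines go up towards the periphery, by 1.52-fold to 12.3-fold, and all Syne4 lines go down, by 3.85-fold to 26.2-fold; in WT mice the Syne4 lines go down by 1.97-fold or less.

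Syne4 (ENSMUSG00000019737) encodes nesprin-4, the epithelial nesprin that binds the microtubule motor kinesin-1, and it stood out by region in Ndr cultures. Ndr hilar libraries held 9.58, 12.1 and 6.77 CPM (mice 1224, 1220 and 1219), and the Ndr peripheral libraries of the same mice held 0.366, 0.943 and 1.76 CPM. All Ndr hilar libraries lay above all Ndr peripheral ones, as did 7.49% of tested genes. Means were 9.50 ± 2.69 CPM in Ndr hilar and 1.02 ± 0.698 CPM in Ndr peripheral cultures (SD, n = 3 each), and the log2 difference was 3.21 (SE 0.688), 9.25-fold. Leaving out each library in turn gave 2.80 to 3.83, the highest without the peripheral library of Ndr mouse 1219.

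This Syne4 difference was not called by edgeR (adjusted p = 0.418, unadjusted p = 0.00066), by limma-voom (adjusted p = 0.447) or with the mouse as a block (adjusted p = 0.506), and was called by DESeq2 (adjusted p = 0.00302). DESeq2 called 0.481% of all genes in this comparison, and 10.3% had an unadjusted edgeR p under 0.05. Within mice, the hilar culture held 26.2, 12.9 and 3.85 times the peripheral CPM in Ndr mice 1224, 1220 and 1219. Summed proliferation genes separated the same groups, at 346 to 596 CPM in Ndr hilar and 916 to 1561 CPM in Ndr peripheral cultures, and their part in the region differences of Syne4 and Syne1 was not tested.

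In WT cultures the region difference of Syne4 did not pass the test. WT hilar libraries held 3.96, 6.03 and 11.0 CPM (mice 1221, 1225 and 1223), and WT peripheral libraries 2.02, 5.51 and 9.57 CPM. The groups overlapped, with a log2 difference of 0.29 (SE 0.619, edgeR adjusted p = 1; 0.90 without the peripheral library of WT mouse 1223), although each WT hilar culture was above the peripheral culture of its mouse, by 1.97, 1.09 and 1.15 times. The hilar culture was thus the higher one in 6 of 6 mice, which held for 1.12% of tested genes. In WT mice 1225 and 1223 this order rests on the scaling for depth. Their counts were 48 and 71 in the hilar library, against 52 and 80 in the peripheral library. Over both genotypes the log2 difference was 1.75 (SE 0.458, edgeR adjusted p = 0.786), and the interaction, the test of whether the region difference depends on genotype, was 2.92 (SE 0.910, edgeR adjusted p = 0.994, unadjusted p = 0.0082). The interaction was 3.55 without the peripheral library of Ndr mouse 1219 and 2.30 by limma-trend on the authors' normalized table.

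Read by genotype, Syne4 was lower in Ndr than in WT peripheral cultures without overlap, at 0.366 to 1.76 CPM in Ndr and 2.02 to 9.57 CPM in WT. The log2 difference was -2.47 (SE 0.676, edgeR adjusted p = 1.0, unadjusted p = 0.0037), and 3.61% of tested genes separated these groups in the same direction. It was -3.10 without the peripheral library of Ndr mouse 1219, and -1.58 (SE 1.21) by limma-trend on the authors' normalized table. On the shared derivation day the values were 0.366 CPM in the Ndr and 5.51 CPM in the WT culture (log2 difference -3.33). In hilar cultures Ndr libraries at 6.77 to 12.1 CPM overlapped with WT libraries at 3.96 to 11.0 CPM (log2 difference 0.45, SE 0.616, edgeR adjusted p = 0.928). The counts behind Syne4 were low, down to 4 in the peripheral library of mouse 1224. Region and genotype comparisons of Syne4 share the Ndr peripheral libraries and do not support one another.

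Syne2 (ENSMUSG00000063450) encodes nesprin-2, the other giant nesprin, which also binds actin. It had the highest CPM of the nesprins, and its libraries scattered within every group. Ndr hilar libraries held 55.4, 124 and 15.6 CPM (mice 1224, 1220 and 1219), against 68.8, 58.4 and 33.8 CPM in WT hilar libraries (mice 1221, 1225 and 1223). Ndr peripheral libraries held 59.0, 22.9 and 155 CPM, against 56.8, 43.2 and 105 CPM in WT peripheral libraries, in the same mouse order. The groups overlapped in both regions, with log2 differences of 0.27 (SE 0.741, edgeR adjusted p = 0.976) in the hilum and 0.20 (SE 0.739, edgeR adjusted p = 1.0) in the periphery. Hilar cultures held 0.939, 5.42 and 0.101 times the peripheral CPM in Ndr mice and 1.21, 1.35 and 0.321 times in WT mice.

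The Syne2 level moved with that of long transcripts in general. For each library, an index was taken as the median log2 deviation, from the mean over libraries, of 267 genes whose longest transcript is at least 10 kilobases, the 6 genes left out. It ran from -0.97 in the hilar library of Ndr mouse 1219 and -0.62 in the peripheral library of Ndr mouse 1220 to 0.57 in the hilar library of Ndr mouse 1220. Across the 12 libraries, which are pairs from 6 mice and so not independent, Syne2 followed this index with r = 0.963 (Spearman 0.937). Syne1, whose principal transcript is longer still, gave r = 0.346 (Spearman 0.0909), and Syne4 gave r = 0.0432. Sun2 gave r = 0.636 (Spearman 0.573), Sun1 r = 0.436 (Spearman 0.510) and Syne3 r = -0.130 (Spearman -0.238). The 5 genes closest to Syne2 in pattern were Srrm2 (r = 0.985), Herc2 (r = 0.982), Trrap (r = 0.981), Trio and Huwe1, whose longest transcripts measure 8.86 to 15.3 kilobases against a median of 2.98 over tested genes.

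With the index as a covariate, the SE of the hilar Syne2 difference between genotypes fell to 0.206, against 0.741 without it, and the difference was 0.04. In the periphery the Syne2 difference with the index was 0.41 (SE 0.206, edgeR adjusted p = 1.0), against 0.20 without it. The hilar Syne1 difference was -3.08 with the index, and the region difference of Syne4 in Ndr was 3.25 (edgeR adjusted p = 0.140). The index was defined after the Syne2 values were seen. RNA integrity is not given in the labels, and its part in the index was not tested.

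**Figure D3:**
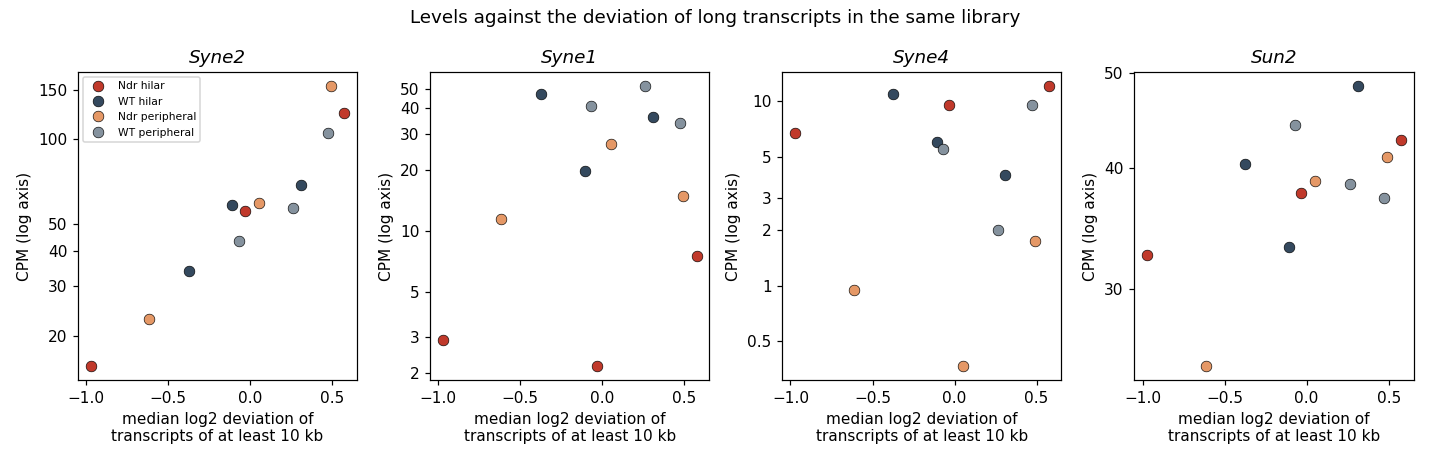
CPM (log axes) of Syne2, Syne1, Syne4 and Sun2 in the 12 libraries against the median log2 deviation of transcripts of at least 10 kilobases in the same library, coloured by group. Syne2 rises along the axis (r = 0.963), Sun2 less closely (r = 0.636), and Syne1 (r = 0.346) and Syne4 (r = 0.0432) scatter.

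Syne3 (ENSMUSG00000054150), which encodes nesprin-3, the nesprin that binds plectin and through it intermediate filaments, was close to the detection limit. Its counts were 3, 0 and 2 in Ndr hilar libraries (mice 1224, 1220 and 1219), against 3, 15 and 5 in WT hilar libraries (mice 1221, 1225 and 1223). They were 27, 3 and 4 in Ndr peripheral libraries, against 6, 15 and 3 in WT peripheral libraries. A count of 0 in the Ndr hilar library of mouse 1220 allows up to 0.392 CPM, counting error only. The log2 differences were -2.16 (SE 1.23, edgeR adjusted p = 0.774) in the hilum and 0.37 (SE 1.03, edgeR adjusted p = 1.0) in the periphery, so no difference was detectable at this depth.

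Sun1 (ENSMUSG00000036817) and Sun2 (ENSMUSG00000042524) encode the inner membrane partners that bind lamins and hold the KASH tails. Sun1 stood at 93.7, 118 and 105 CPM in Ndr hilar and 112, 74.5 and 85.3 CPM in WT hilar libraries, and at 118, 80.5 and 98.0 CPM in Ndr peripheral and 113, 111 and 103 CPM in WT peripheral libraries. Ndr and WT values of Sun1 overlapped in both regions, with log2 differences of 0.22 (SE 0.206, edgeR adjusted p = 0.865) and -0.14 (SE 0.206, edgeR adjusted p = 1.0).

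Sun2 held 37.7, 42.7 and 32.5 CPM in Ndr hilar and 48.5, 33.2 and 40.3 CPM in WT hilar libraries, and 38.7, 25 and 41.0 CPM in Ndr peripheral and 38.5, 44.2 and 37.2 CPM in WT peripheral libraries. These groups overlapped too, with log2 differences of -0.11 (SE 0.231, edgeR adjusted p = 0.960) and -0.20 (SE 0.230, edgeR adjusted p = 1.0). In the mouse totals Sun2 averaged 35.4 ± 3.43 CPM in Ndr and 41.0 ± 3.31 CPM in WT mice (SD, n = 3 each). The log2 difference was -0.21 (SE 0.136, edgeR adjusted p = 0.915). The genotypes did not overlap (5.78% of tested genes in this direction), but they almost touched. Ndr mouse 1224 held 38.48 CPM and WT mouse 1223 held 38.58 CPM. In the fit, both SUN genes differed by region by at most 0.27 on the log2 scale in either genotype. Within single mice the log2 differences of hilar from peripheral cultures had both signs. They ran from -0.57 (Sun1, WT mouse 1225) to 0.77 (Sun2, Ndr mouse 1220). Sun1 and Sun2 had the highest r of any pair of the 6 genes (r = 0.615, Spearman 0.524 across 12 libraries from 6 mice). Syne2 and Sun2 were close behind (r = 0.562, Spearman 0.483), and Syne1 and Syne4 gave r = -0.222.

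**Figure D4:**
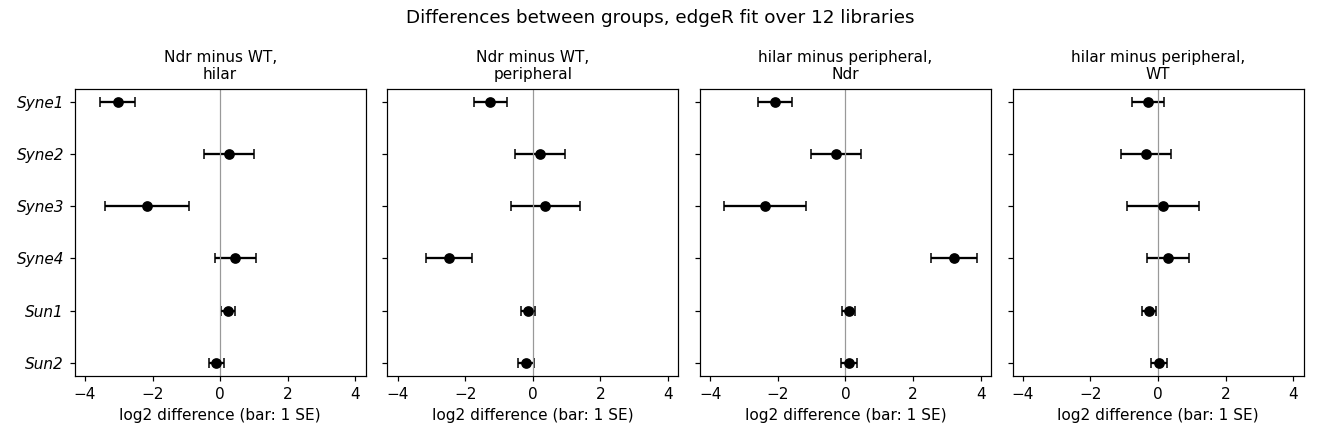
Log2 differences (horizontal axes) of the 6 genes in 4 comparisons, with bars of 1 SE from the edgeR fit over 12 libraries. The points farthest from 0 are Syne4 by region in Ndr (3.21), Syne1 in the hilum (-3.03) and Syne4 in the periphery (-2.47), while Sun1 and Sun2 lie within 0.27 of 0.

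Counted over the 6 genes, or the 5 tested in the mouse totals, edgeR called 0 in each comparison. The other counts leave out Syne1 wherever hilar libraries enter, since it is taken to have been chosen on them, and so cover the other 5 genes there. Between genotypes in the hilum, 0 of the 5 had an unadjusted p under 0.05 (6.54% of all genes), DESeq2 called 0 (0.281%), and 0 separated the groups in either direction (4.57% of all genes higher in Ndr, 4.18% lower). In the periphery 2 of 6 genes, Syne1 and Syne4, had an unadjusted p under 0.05 (2.92% of all genes) and DESeq2 called neither (0.0401%). The same 2 were lower in Ndr without overlap (3.61% of all genes), and 0 were higher (5.41%). Peripheral cultures came from the same mice as the hilar ones, so counting Syne1 here is not independent of its choice.

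Between regions in Ndr, 1 of the 5 genes, Syne4, had an unadjusted p under 0.05 (10.3% of all genes) and was called by DESeq2 (0.481%). Between regions in WT, 0 of the 5 had an unadjusted p under 0.05 (0.506% of all genes), DESeq2 called 0 of the 5 and 0 of all genes, and 0 separated the regions in either direction (2.94% of all genes higher in the hilum, 2.6% lower). Over both genotypes Syne4 had an unadjusted p under 0.05 (6.07% of all genes) and was not called by DESeq2 (0.02%). For the interaction Syne4 had an unadjusted p under 0.05 (3% of all genes) and was not called by DESeq2 (0.0267%). In the mouse totals Syne3 did not pass the filter, 0 of the other 4 had an unadjusted p under 0.05 (5.42% of all genes) and DESeq2 called 0 (0.735%). There 1 gene, Sun2, was lower in Ndr without overlap (5.78% of all genes) and 0 were higher (5.49%). The Sun2 values almost touched, at 38.48 CPM in Ndr mouse 1224 and 38.58 CPM in WT mouse 1223. In each of the 7 comparisons limma-voom called 0 of the 6 genes, or of the 5 tested in the mouse totals.

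By pattern over the 12 libraries, the genes most like Syne1 among 11834 of at least 5 CPM were Epha4, an ephrin receptor (r = 0.896), Zc3h12a, an RNase that limits inflammatory transcripts (r = 0.885), Fchsd2, Pcdh7 and Tbc1d1. Those most like Syne4 were Fam174b (r = 0.930), Bhlhb9, Snhg18, Tnfrsf19 and Sema5a. These are descriptions over libraries that share mice. The genes most like Syne1 had longest transcripts of 2.76 to 8.79 kilobases.

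The promoters of Syne1, Syne4 and Sun2 are shown. Over the 12 libraries, differences between groups included, Syne1 and Syne4 varied most among the 6 genes and Sun2 was among the steadiest. Each window runs from 250 bases before to 50 after the start that RefSeq gives on GRCm38.p6, in the direction of the gene, and capitals mark CG dinucleotides. For Syne1 the outermost of 3 listed starts is printed.
Syne1, chr10:5550643-5550942, minus strand: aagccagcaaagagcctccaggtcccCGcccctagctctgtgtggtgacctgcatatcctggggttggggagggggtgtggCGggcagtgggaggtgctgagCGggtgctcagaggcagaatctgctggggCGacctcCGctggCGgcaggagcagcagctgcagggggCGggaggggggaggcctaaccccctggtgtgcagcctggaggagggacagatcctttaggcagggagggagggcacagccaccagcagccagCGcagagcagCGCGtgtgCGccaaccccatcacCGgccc
Syne4, chr7:30314566-30314865, plus strand: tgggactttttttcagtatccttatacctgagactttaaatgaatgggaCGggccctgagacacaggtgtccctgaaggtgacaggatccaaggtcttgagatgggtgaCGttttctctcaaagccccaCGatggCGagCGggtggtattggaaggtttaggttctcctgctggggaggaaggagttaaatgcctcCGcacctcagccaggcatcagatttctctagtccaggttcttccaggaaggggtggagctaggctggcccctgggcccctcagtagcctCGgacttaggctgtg
Sun2, chr15:79742487-79742786, minus strand: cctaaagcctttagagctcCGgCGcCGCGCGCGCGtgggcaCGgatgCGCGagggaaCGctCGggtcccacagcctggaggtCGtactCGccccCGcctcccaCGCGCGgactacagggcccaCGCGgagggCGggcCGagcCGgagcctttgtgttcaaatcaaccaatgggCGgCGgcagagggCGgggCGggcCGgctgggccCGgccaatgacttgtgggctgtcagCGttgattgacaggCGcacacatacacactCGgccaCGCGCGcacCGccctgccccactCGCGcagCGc
The Sun2 window holds 39 CG dinucleotides, more than 95.6% of the 32851 RefSeq windows, against 12 in the Syne1 window and 7 in the Syne4 window, which is the median of all windows. The Syne2 window holds 35, the Syne3 window 5, the Sun1 windows 36 and 4, and the other Syne1 windows 3 and 4. Whether CG content goes with the spread was not tested. TGGGAA, the core of the site bound by the Notch effector RBPJ, was searched on both strands and is in none of the 9 windows of the 6 genes, against 25.6% of all windows.

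Other genes of the bridge were taken from lists. Of 6 further SUN and KASH genes, 2 passed the filter on low counts: Suco, a SUN-domain protein of the endoplasmic reticulum (mean 93.1 CPM), and Spag4 (1.74 CPM). Sun5 and Lrmp had 0 counts in all libraries. edgeR called neither Suco nor Spag4 in any comparison. Suco averaged 121 ± 41.6 CPM in Ndr hilar and 71.4 ± 8.38 CPM in Ndr peripheral cultures (SD, n = 3 each), a log2 difference of 0.76 (SE 0.256, edgeR adjusted p = 0.418).

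All 20 listed genes of the lamina and inner nuclear membrane, the inner anchor of the bridge, were tested, and edgeR called 0 in each comparison. In the hilum 6 had a higher and 14 a lower fitted value in Ndr than in WT, where 49.5% of all tested genes were higher. The median log2 difference was -0.10, against -0.0046 over all tested genes. Of the 20, 0 had an unadjusted p under 0.05 (6.54% of all genes). In the periphery 13 were higher and 7 lower in Ndr, where 54.5% of all tested genes were higher. The median was 0.12, against 0.033 over all tested genes, and again 0 had an unadjusted p under 0.05 (2.92% of all genes). Between regions in Ndr 7 were higher and 13 lower in the hilum, where 48.7% of all tested genes were higher. The median was -0.21, against -0.013 over all tested genes. Of the 20, 4 genes, Lmna, Lbr, Tor1b and Nrm, had an unadjusted p under 0.05, as did 10.3% of all genes. The Ndr libraries of this comparison also enter the comparisons between genotypes, so these splits are not independent. Between regions in WT, 12 were higher and 8 lower in the hilum, where 53.9% of all tested genes were higher. The most abundant were Tor1aip2, the torsin cofactor LULL1, and Lmna, which encodes the A-type lamins. Lmna averaged 150 ± 32.3 CPM in Ndr hilar and 249 ± 115 CPM in WT hilar cultures (log2 difference -0.73, SE 0.360, edgeR adjusted p = 0.750), and 329 ± 119 CPM in Ndr peripheral and 220 ± 48.8 CPM in WT peripheral cultures (SD, n = 3 each). Between regions in Ndr its log2 difference was -1.13 (SE 0.362, edgeR adjusted p = 0.418). Tor1aip2 lay at 234 ± 2.85 CPM in Ndr hilar and 239 ± 36.2 CPM in WT hilar cultures.

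The 21 listed cytoskeletal partners, among them plectin, kinesin-1, dynein, spectrin and keratin genes, were all tested as well, and edgeR called 0 in each comparison. In the hilum 4 had a higher and 17 a lower fitted value in Ndr than in WT (median log2 difference -0.14), and 3 of them, Dst, Actn1 and Actb, had an unadjusted p under 0.05, as did 6.54% of all genes. Of all tested genes 49.5% were higher in Ndr hilar cultures. In the periphery 14 were higher and 7 lower in Ndr, where 54.5% of all tested genes were higher. The median log2 difference was 0.018, against 0.033 over all tested genes. Of the 21, 1 gene, Klc4, had an unadjusted p under 0.05 (2.92% of all genes). Between regions in Ndr, 4 were higher and 17 lower in the hilum, where 48.7% of all tested genes were higher. The median was -0.30, against -0.013 over all tested genes. The Ndr libraries of this comparison also enter the comparisons between genotypes, so these splits are not independent. Between regions in WT, 8 were higher and 13 lower in the hilum, where 53.9% of all tested genes were higher. The part of the long-transcript index in these splits was not tested. The most abundant were Krt18 and Krt8, the keratins of simple epithelia. Krt18 averaged 1716 ± 272 CPM in Ndr hilar and 3405 ± 2755 CPM in WT hilar cultures, and Krt8 1068 ± 172 CPM in Ndr hilar and 2135 ± 1657 CPM in WT hilar cultures, with the SD of the WT cultures close to their mean.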

How the data were processed

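The 6 genes and the companion lists were chosen with earlier results of these data known. The authors deposited raw read counts per gene, made with featureCounts on GRCm39, and a signal table of normalized values, per the submitters' processing notes, which also name DESeq2 1.34.0. The aligner, annotation release and strand setting were not given in the sources used here. How the deposited signal values were normalized was not established here, and they entered 1 alternative only (limma-trend on log2 of the value plus 1).

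The main fit used edgeR 4.0.16 under R 4.3.3, with a robust quasi-likelihood F test after filterByExpr and TMM, a coefficient for each of the 4 groups and 8 degrees of freedom left for the spread, and was checked on simulated data. The mouse totals left 4. Benjamini-Hochberg adjustment ran over all genes tested, with a threshold of 0.05, and SEs were computed back from the F statistic. An exact permutation test of 3 against 3 cannot go below 0.1 and was not used. log2 CPM for spread, likeness and the index used a prior count of 2. Alternatives used DESeq2 1.42.0, limma 3.58.1, other scalings and filters, derivation date, the mouse as block, and leaving out each library. Named in the text are the 6 genes, Jag1, and per list the genes called or, with none, the 2 most abundant; likeness names the 5 genes of highest r. Suco by region, Dst, Actn1, Actb, Klc4, Lbr, Tor1b and Nrm fall outside this rule, chosen with their values in view. Symbols and lengths came from GENCODE M21 (GRCm38), which named 52093 of the identifiers; counts of overlapping genes cannot be apportioned without the strand setting, but antisense neighbours of Sun1 and Sun2 held 2 and 3 counts in all.

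A mouse number marks 1 animal, so it pairs a hilar with a peripheral library. Deviations from the group means correlated at 0.140, -0.340 and -0.314 for Ndr mice 1224, 1220 and 1219, and at 0.333, 0.451 and -0.0624 for WT mice 1221, 1225 and 1223.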

Additional observations from a re-analysis of the deposited data

How the results depend on the processing

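Depth limits Syne3 (0 to 27 counts per library) and Syne4 in the Ndr peripheral libraries, and 3 cultures a group limit all comparisons. The labels give derivation day as the only batch, and the genotypes share only day 21. Alternatives were DESeq2 and upper quartile scaling, a Wald test in DESeq2, limma-voom, filters on low counts, derivation date, the authors' normalized table, the replicate block and leaving out each library; the index of long transcripts was added after seeing the data. Syne1 in the hilum and Syne4 by region in Ndr kept their direction under all of these. For changes under other alternatives the cause was not tested.

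The number of the 6 genes called, 0 in edgeR, was 1 (Syne1) in the hilum and 1 (Syne1) in the mouse totals by DESeq2 and by limma-trend on the authors' normalized table, and 2 (Syne1 and Syne4) between regions in Ndr by DESeq2. Syne1 is taken to have been chosen on the hilar libraries that enter each of these counts, so its calls cannot serve as a test of it. They show only how the number called depends on the method. With the mouse as replicate block, which is paired by animal, 0 were called, and the region difference in Ndr was 3.34 for Syne4 and -2.15 for Syne1; the block changed no call. For Syne1 in the mouse totals, limma-trend on the authors' table gave -1.07 and limma-voom with the mouse as a block -2.24.

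Reversals of sign were all of log2 differences that were 0.45 or smaller in the edgeR fit and passed no test. Under limma-voom Syne2 was -0.16 in the hilum and -0.10 in the periphery between genotypes, and Syne3 -0.33 by region in WT. Limma-trend on the authors' table gave -0.20 for Syne2 and 0.13 for Sun2 in the hilum, -0.10 for Sun1 by region in Ndr, -0.22 for Sun2 by region in WT, and 0.20 for Syne4 and 0.18 for Sun1 in mouse totals. Derivation date as a factor gave 0.038 for Sun2 in the hilum, 0.031 for Sun1 in the periphery and 0.19 for Sun1 in mouse totals. The replicate block gave -0.0036 for Syne3 by region in WT, and -0.13 for Syne2 and 0.042 for Sun1 in mouse totals. The long-transcript index gave 0.27 for Syne2 and -0.11 for Syne3 by region in WT and 0.070 for Sun1 in mouse totals, where upper quartile scaling gave 0.032.

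Leaving out each library in turn, Syne1 in the hilum ran from -3.76 to -2.74. Between genotypes in the hilum Syne2 ran from -0.59 to 0.74 and Sun2 from -0.24 to 0.0093, and in the periphery Syne2 from -0.74 to 0.63 and Syne3 from -1.21 to 1.26. By region in Ndr, Syne2 ran from -1.12 to 0.66, Sun1 from -0.015 to 0.23 and Sun2 from -0.058 to 0.24. By region in WT, Syne2 ran from -0.59 to 0.10, Syne3 from -0.91 to 1.04, Syne4 from -0.19 to 0.90 and Sun2 from -0.091 to 0.16. In mouse totals Syne2 ran from -0.053 to 0.23, Syne4 from -0.78 to 0.057 and Sun1 from -0.068 to 0.078.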

Other observations

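The genes whose pattern over the 12 libraries was closest to the remaining members are given as values. For Sun1 they were Xylt2 (r = 0.933), Lix1l, 2310022B05Rik, Rhbdd2 and Insyn1, and for Sun2 they were Znrf1 (r = 0.935), Fbln2, Farp1, March9 and Ly75. For Syne3, at 0 to 27 counts per library, they were Maff (r = 0.941), Slc2a1, Mthfd1l, Pxdc1 and Gm10358. Libraries share mice, and no test was made.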
